A study of Homo sapiens with 12 samples.

Results

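JQ1 was set against BKM120 in OPM2, an established myeloma line of human plasma cell origin. JQ1 blocks the bromodomains through which BET proteins bind acetylated chromatin and was used at 250 nM. The other compound, BKM120 (buparlisib), is an inhibitor of the lipid kinase PI3K and was used at 1 µM. The doses therefore differ, and the contrast holds for these doses alone. The comparison uses 6 of the 12 libraries of the series, 3 with JQ1 and 3 with BKM120, all from cells collected after 2 h. The series also holds 3 libraries with 18DS, a chimeric compound built to inhibit both targets and given at 250 nM, and 3 with the vehicle DMSO, all at 2 h. The labels call the triplicates biological but name no culture, passage or batch, so the p-values measure the spread between these libraries. Every gene that passed a filter on low counts was compared, which left 13180 of 63152 identifiers, and the members described most closely are the genes that the compounds moved in opposite directions from DMSO.

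Both targets act on growth control. BET proteins recruit the elongation kinase P-TEFb to enhancers and promoters, and *MYC* is among the genes most dependent on them in plasma cell tumours. PI3K signals through AKT, which holds the FOXO transcription factors in the cytoplasm. The same cascade acts through mTORC1 on the SREBP proteins, which switch on genes of sterol and fatty acid synthesis.

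Transcripts were counted by sequencing their 3' ends. Levels are counts scaled to CPM, with library sizes scaled by TMM, a factor computed from most genes, and differences are given on the log2 scale as JQ1 minus BKM120 unless DMSO is named. A mean is given ± SD over 3 libraries (n = 3). Total counts ranged from 5501895 to 7692013 per JQ1 library, from 5563788 to 6883854 per BKM120 library and from 5940610 to 6594995 per DMSO library. On the first principal component of the 6 compared libraries, with 47.8% of the variance, JQ1 libraries scored -26.1 to -22.7 and BKM120 libraries 18.2 to 29.4. BKM120 replicate 3 lay apart from its group on the second component (14.7% of the variance), at 23.6 against -14.7 and -12.2. The mitochondrially encoded share of counts was 6.61% to 7.04% with JQ1 and 6.99% to 7.65% with BKM120, and 1935 genes were called without those genes, against 1925 with them. All 9 plasma cell and myeloma markers looked at were counted in the 12 libraries, with the surface protein gene *SDC1* at 236 to 326 CPM, *XBP1* at 504 to 831 CPM and *SLAMF7* at 90.2 to 151 CPM, while *CD38* was low at 3.51 to 7.05 CPM. Of the lists of markers for other cells, 1 of 19 T and NK cell genes, 2 of 15 myeloid genes and 0 of 13 epithelial and fibroblast genes passed the filter, and 0 of them differed between the compounds by edgeR, also at an unadjusted p under 0.05. Each of these lists had 3 genes with no count in any library. Their summed levels were 23.1 to 24.9 CPM with JQ1 and 23.0 to 25.5 CPM with BKM120 for T and NK cell genes, where *NCAM1* made up most of the sum. For myeloid genes, mostly *CST3*, they were 30.4 to 32.2 CPM with JQ1 and 33.4 to 37.4 CPM with BKM120. For epithelial and fibroblast genes they were 0.909 to 1.69 CPM with JQ1 and 1.08 to 3.88 CPM with BKM120. The part of these levels in the differences was not tested.

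The compounds left different transcript profiles. By edgeR's quasi-likelihood test at a Benjamini-Hochberg adjusted p under 0.05, 1925 of the 13180 tested genes (14.6%) differed. Of these, 947 (7.19%) were higher and 978 (7.42%) lower with JQ1 than with BKM120. Differences of at least 2-fold were found in 346 called genes (2.63%), 147 higher and 199 lower with JQ1, and of at least 8-fold in 11 and 8. The 3 JQ1 values lay wholly above or wholly below the 3 BKM120 values in 4395 genes (33.3%), so lack of overlap alone is common here. Each compound was also set against the same 3 DMSO libraries. JQ1 raised 346 genes (2.63%) and lowered 455 (3.45%), while BKM120 raised 536 (4.07%) and lowered 546 (4.14%). The number of called genes changed when a single library was left out, which also makes its group smaller. It was 1441, 1280 and 1156 without JQ1 replicate 1, 2 and 3 in turn. With BKM120 replicate 1, 2 and 3 left out in turn it was 1162, 1982 and 1171. Just inside the threshold stood *REST* (log2 difference -0.42, edgeR adjusted p = 0.0499), and just outside it *SLC12A2* (0.47).

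**Figure D1:**
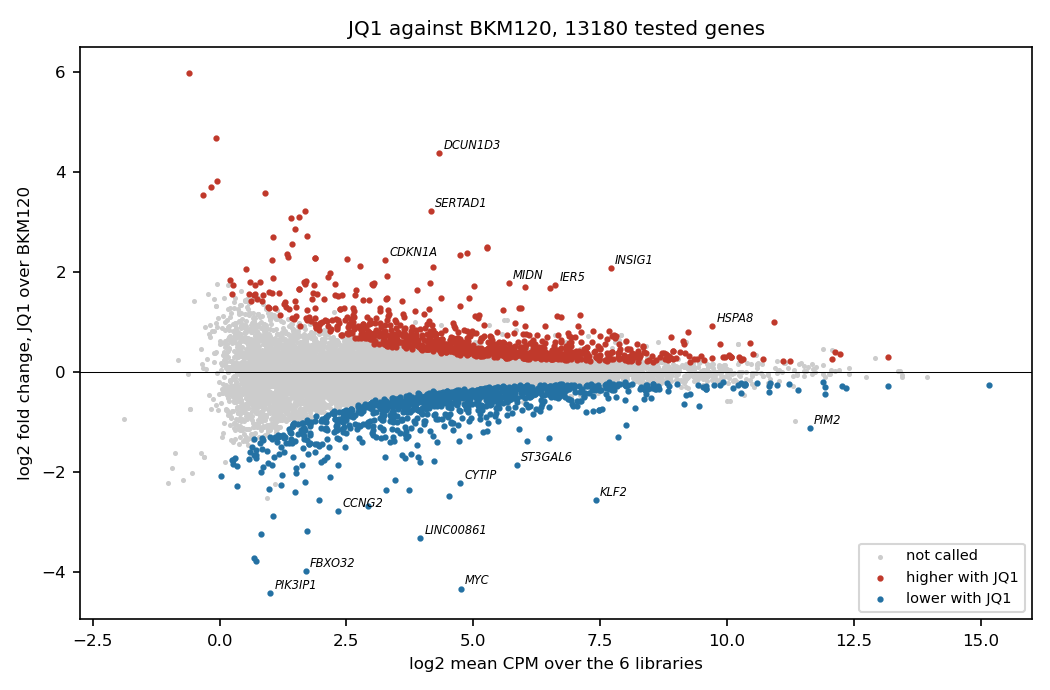
Log2 fold change of JQ1 over BKM120 (vertical axis) against the log2 mean level over the 6 libraries (horizontal axis, CPM) for 13180 tested genes, 1 point each, with the 947 genes higher with JQ1 in red, the 978 lower in blue and the others in grey. *DCUN1D3* (4.37) and *MYC* (-4.34) lie far from zero at moderate levels, and *PIM2* (-1.12) lies far to the right.

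All 4 genes named as markers of the contrast differed between the compounds. *MYC* (ENSG00000136997), the growth-promoting transcription factor, stood at 2.24, 2.91 and 2.46 CPM in the 3 JQ1 libraries, 56.5, 47.4 and 50.1 CPM in the BKM120 libraries and 28.6, 32.2 and 27.2 CPM in the DMSO libraries. Every JQ1 value was below every DMSO value, and every BKM120 value above every DMSO value. *MYC* was 20.2-fold lower with JQ1 than with BKM120 (log2 difference -4.34 with SE 0.19, edgeR adjusted p = 3.17e-19). Against DMSO its log2 difference was -3.53 with JQ1 and 0.81 with BKM120. In bulk libraries such as these, fewer cells that express a gene and less RNA per cell cannot be told apart. *INSIG1* (ENSG00000186480), which holds the SREBP escort protein SCAP in the endoplasmic reticulum and is itself an SREBP target, showed the opposite order. Its levels were 335, 332 and 347 CPM with JQ1, 72.9, 81.4 and 86.4 CPM with BKM120 and 146, 139 and 135 CPM with DMSO. It was 4.22-fold higher with JQ1 than with BKM120 (log2 difference 2.08 with SE 0.08, edgeR adjusted p = 1.68e-20), and the groups did not overlap. *FBXO32* (ENSG00000156804), a ubiquitin ligase subunit and FOXO target, had few reads, with raw counts of 1, 3 and 3 in the JQ1 libraries, 44, 44 and 26 in the BKM120 libraries and 21, 9 and 8 in the DMSO libraries. The JQ1 and BKM120 counts did not overlap (log2 difference -3.98 with SE 0.48, edgeR adjusted p = 1.30e-07), and the size of the difference rests on 7 reads in the JQ1 group. *PIM2* (ENSG00000102096), a survival kinase highly expressed in myeloma, had 2035, 2057 and 1933 CPM with JQ1, 4405, 4314 and 4345 CPM with BKM120 and 2765, 2989.9 and 2915 CPM with DMSO. Its 3 groups did not overlap either (log2 difference -1.12 with SE 0.07, edgeR adjusted p = 4.79e-15).

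**Figure D2:**
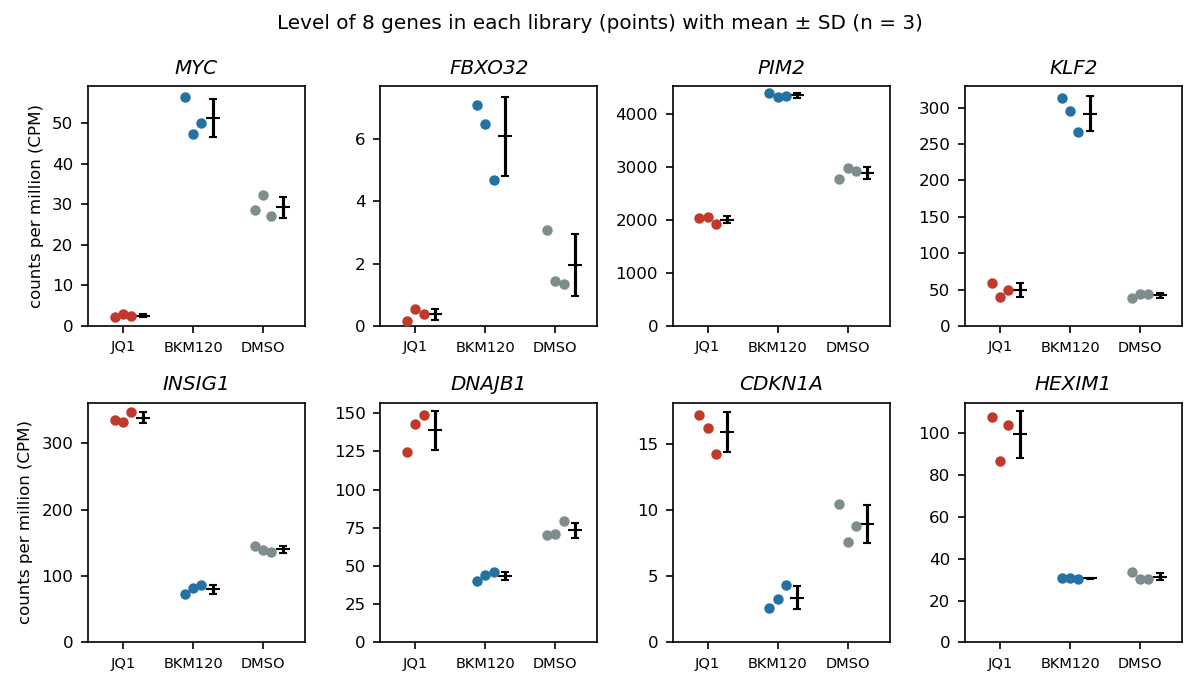
Level of 8 genes (vertical axis, CPM from 0) in each JQ1, BKM120 and DMSO library, 1 point per library, with the group mean ± SD (n = 3) beside the points. *MYC*, *FBXO32* and *PIM2* are lowest with JQ1 and highest with BKM120, *INSIG1*, *DNAJB1* and *CDKN1A* are in the opposite order, and in *KLF2* and *HEXIM1* a single compound stands away from DMSO.

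Of the 12 named genes with the largest differences in favour of JQ1, all 12 were raised by JQ1 against DMSO and 4 also passed the test for BKM120, which lowered them. The 12 were chosen for their differences between the same JQ1 and BKM120 libraries, which favours such counts and makes them no further evidence. Of all tested genes, JQ1 raised 2.63% and BKM120 lowered 4.14% against DMSO. *DCUN1D3*, which promotes attachment of NEDD8 to cullins, led the named genes at 34.4, 41.3 and 39.2 CPM with JQ1, 0.483, 2.07 and 3.05 CPM with BKM120 and 1.62, 1.77 and 2.83 CPM with DMSO (log2 difference 4.37 with SE 0.24, edgeR adjusted p = 5.13e-13). *SERTAD1*, a cofactor of E2F and CDK4, had 30.1, 33.8 and 32.8 CPM with JQ1, 2.09, 3.4 and 5.03 CPM with BKM120 and 2.65, 4.03 and 2.33 CPM with DMSO (log2 difference 3.21 with SE 0.19, edgeR adjusted p = 1.38e-15). For both genes the BKM120 and DMSO libraries overlapped, and the JQ1 libraries stood far above. Against DMSO, BKM120 differed by -0.16 for *DCUN1D3* (edgeR adjusted p = 0.865) and 0.20 for *SERTAD1* (edgeR adjusted p = 0.718). *HEXIM1*, the inhibitor of P-TEFb and a standard readout of BET inhibition, had 108, 86.6 and 104 CPM with JQ1, 30.8, 30.9 and 30.4 CPM with BKM120 and 33.6, 30.3 and 30.5 CPM with DMSO (log2 difference 1.7 with SE 0.11, edgeR adjusted p = 4.64e-14). The histone genes *H2BC21* and *H3C4* were higher with JQ1 by 2.34 and 2.26. The level of *H3C4* was low, at 9.46 ± 1.58 CPM with JQ1 and 1.95 ± 0.565 CPM with BKM120 (SD, n = 3 each). The U1 snRNA variant gene *RNVU1-24* (2.37), the zinc finger gene *ZCCHC24* (1.93), the G protein regulator *RGS2* (1.78) and the transposase-derived gene *TIGD3* (1.76) were also higher with JQ1. U1 and histone genes have near-identical copies between which reads may be split, so their values are uncertain.

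Of the 12 named genes with the largest differences in favour of BKM120, all 12 were raised by BKM120 against DMSO, and 6 also passed the test for JQ1, which lowered them. The other 6 are FOXO targets or brakes on growth and survival. These 12 were also chosen for their differences between the same libraries, so the counts against DMSO are no further evidence. Of all tested genes, BKM120 raised 4.07% and JQ1 lowered 3.45% against DMSO. *KLF2*, a quiescence factor of lymphocytes and a FOXO target, stood at 59.2, 39.8 and 49.6 CPM with JQ1, 313, 296 and 266 CPM with BKM120 and 37.7, 44 and 44 CPM with DMSO (log2 difference -2.56 with SE 0.16, edgeR adjusted p = 1.72e-07). *TP53INP1*, a stress-induced regulator of autophagy and cell death, had 8.6, 6.37 and 6.09 CPM with JQ1, 35.9, 42.1 and 39.5 CPM with BKM120 and 10.3, 7.73 and 8.66 CPM with DMSO (log2 difference -2.49 with SE 0.16, edgeR adjusted p = 4.02e-14). In both genes the lowest BKM120 library was above every JQ1 and DMSO library. The BH3-only death gene *BBC3* (PUMA) followed the same order, at 4.01 ± 0.311 CPM with JQ1, 17.8 ± 1.9 CPM with BKM120 and 3.77 ± 0.847 CPM with DMSO (log2 difference -2.16 with SE 0.21, edgeR adjusted p = 9.48e-10). Among the remaining genes of this kind were the cyclin-like *CCNG2* (-2.78), the FOXO-induced *DEPP1* (-2.37) and the transcriptional repressor *HBP1* (-1.78). JQ1 differed from DMSO by -0.27, -0.25 and -0.25 in these, with edgeR adjusted p of 0.822, 0.671 and 0.482. *PIK3IP1*, a negative regulator of PI3K, had raw counts of 2, 0 and 1 with JQ1, 23, 22 and 25 with BKM120 and 4, 0 and 6 with DMSO, too few with JQ1 for a fold to be given, although the JQ1 and BKM120 counts did not overlap (edgeR adjusted p = 9.47e-06).

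Genes that the compounds moved in opposite directions were few. Of the 13180 tested genes, 41 (0.311%) passed the edgeR threshold against DMSO for both compounds with opposite signs. JQ1 raised and BKM120 lowered 18 of them (0.137%), and JQ1 lowered and BKM120 raised 23 (0.175%). Both contrasts share the 3 DMSO libraries. All 41 also passed in the direct contrast without overlap, which the way they were chosen brings about and which is no further evidence. Near the edge of the set, *CFLAR* (adjusted p = 0.0495 for JQ1 against DMSO, edgeR) lay inside it and *TERF2IP* (adjusted p = 0.0546 for BKM120 against DMSO, edgeR) outside. The set numbered 27 genes when any single DMSO library was left out, with 14 or 15 of them lower with JQ1, a number that was also 15 without JQ1 replicate 2 and with DESeq2's Wald test. Of the 41, 18 stayed in it under all 25 settings, among them *MYC*, *INSIG1*, *PIM2*, *CDKN1A*, *DNAJB1* and *HSPA8*. *RBBP6*, *FAM222A* and *MANEA* were kept in 0 of the 9 fits that left out a JQ1, BKM120 or DMSO library.

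The 18 genes higher with JQ1 and lower with BKM120 included chaperone genes, lipid genes and a cell cycle inhibitor. *CDKN1A*, which encodes the CDK inhibitor p21, had 17.2, 16.2 and 14.2 CPM with JQ1, 2.58, 3.25 and 4.31 CPM with BKM120 and 10.5, 7.57 and 8.83 CPM with DMSO. *HSPA1B*, an inducible HSP70 whose reads may be split with its near-identical neighbour *HSPA1A*, had 9.98, 11.5 and 11.8 CPM with JQ1, 1.45, 2.81 and 3.41 CPM with BKM120 and 5.74, 5.32 and 6 CPM with DMSO. *DNAJB1*, an HSP40 partner of HSP70, had 124, 143 and 149 CPM with JQ1, 40.4, 44 and 46 CPM with BKM120 and 70.5, 70.7 and 79.1 CPM with DMSO. In each of these 3 genes the DMSO libraries lay between those of the compounds, without overlap. The constitutive chaperone *HSPA8* moved less on the log2 scale, with 1098 ± 64 CPM under JQ1, 582 ± 7.29 CPM under BKM120 and 822 ± 51.4 CPM under DMSO (SD, n = 3 each). *MID1IP1*, an activator of acetyl-CoA carboxylase, and *FASN*, fatty acid synthase, joined *INSIG1* among the lipid genes. *MID1IP1* averaged 86.6 ± 1.56 CPM with JQ1, 35.5 ± 2.27 CPM with BKM120 and 54.1 ± 3.33 CPM with DMSO, and *FASN* 312 ± 18.4 CPM with JQ1, 204 ± 9.65 CPM with BKM120 and 255 ± 12.6 CPM with DMSO. *MIDN*, which delivers nuclear proteins to the proteasome, rose by 1.23 on the log2 scale with JQ1 and fell by 0.56 with BKM120 against DMSO. The other members were *TSC22D2*, the mitochondrial RNA-binding gene *MTRES1*, the snoRNA host *SNHG12*, *FAM222A*, the helix-loop-helix regulators *ID2* and *HES6*, the histone gene *H3-3B*, the dynein light chain *DYNLL1*, *IER5* and the ubiquitin ligase *RBBP6*. Against DMSO these, *FAM222A* left aside, differed by 0.26 to 1.43 with JQ1 and by -0.81 to -0.26 with BKM120 on the log2 scale. *FAM222A* rested on few reads, at 3.78, 3.46 and 3.11 CPM with JQ1, 0.483, 0.148 and 0.18 CPM with BKM120 and 0.589, 0.966 and 2 CPM with DMSO.

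The 23 genes lower with JQ1 and higher with BKM120 included *MYC*, *FBXO32* and *PIM2*. *CYTIP*, which controls leukocyte adhesion, had 7.22, 10.2 and 10.5 CPM with JQ1, 45.9, 42.4 and 43.8 CPM with BKM120 and 24.7, 23 and 24.5 CPM with DMSO. *ARID5B*, a DNA-binding cofactor, had 3.78, 2.73 and 2.98 CPM with JQ1, 17.7, 14.3 and 16.9 CPM with BKM120 and 9.87, 6.76 and 5.67 CPM with DMSO. The long noncoding RNA gene *LINC00861* had 1.55, 4 and 2.85 CPM with JQ1, 28.2, 26.4 and 29.6 CPM with BKM120 and 6.19, 7.09 and 5 CPM with DMSO. In all 3 the DMSO libraries lay between those of the compounds, without overlap. *ST3GAL6*, a sialyltransferase, was lowered by JQ1 (-0.49) and raised by BKM120 (1.37). *TNFRSF17*, which encodes the plasma cell survival receptor BCMA, averaged 219 ± 9.38 CPM with JQ1, 359.8 ± 13.3 CPM with BKM120 and 296 ± 20.6 CPM with DMSO (SD, n = 3 each). The AMP deaminase gene *AMPD1*, the ESCRT subunit *VPS37B*, the chondroitin sulfotransferase *CHST15*, the mannosidase *MANEA*, the translation regulator *CPEB3* and *PRR15* fell by 0.57 to 0.84 on the log2 scale with JQ1 and rose by 0.56 to 1.15 with BKM120. The remaining members were *RBMS1*, *UBALD2*, the deadenylase *CNOT6L*, the transcription factor *SOX4*, the caspase-8 inhibitor *CFLAR*, the acetyltransferase *KAT5*, the chromatin reader *ZMYND8* and the identifiers ENSG00000241666 and ENSG00000256152, which have no symbol. These differed from DMSO by -1.84 to -0.34 with JQ1 and by 0.33 to 0.90 with BKM120.

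**Figure D3:**
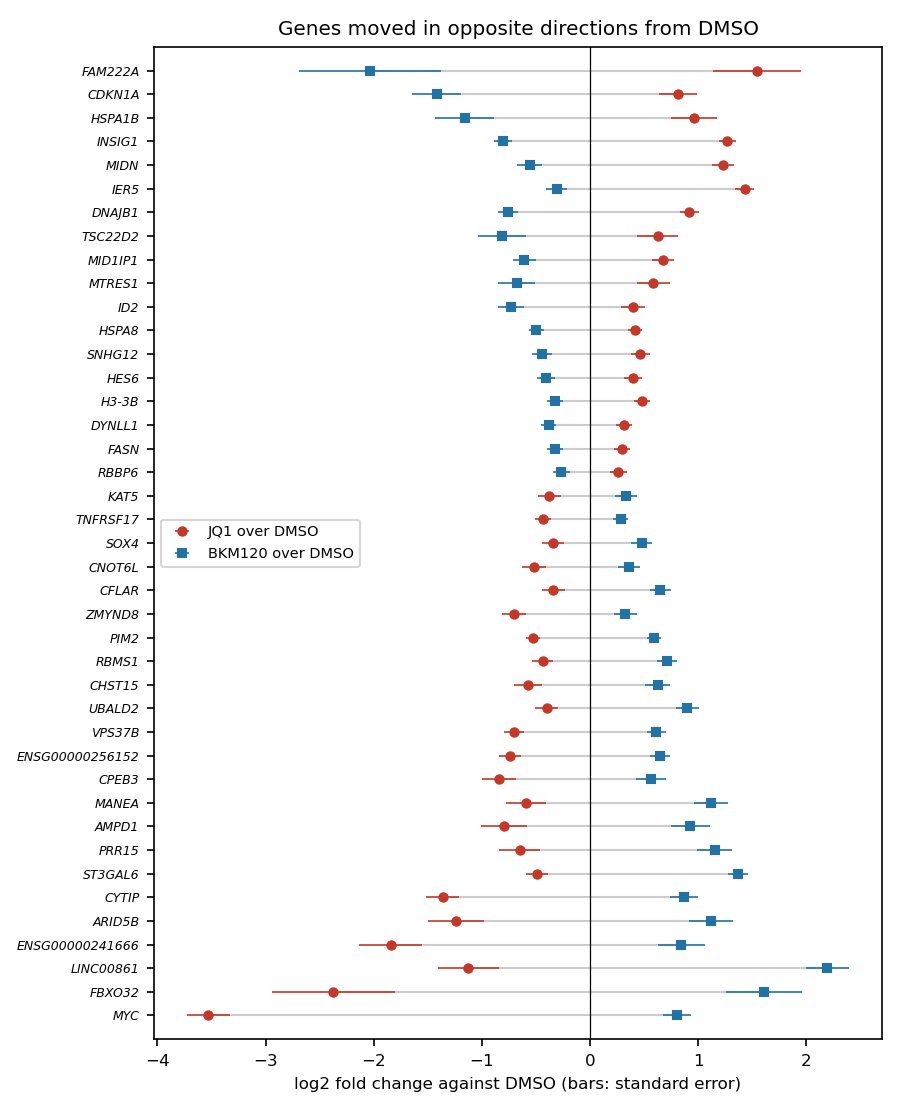
Log2 fold change against DMSO (horizontal axis, bars of 1 standard error) with JQ1 (red circles) and BKM120 (blue squares) for the 41 genes that the compounds moved in opposite directions. The 18 genes that JQ1 raised fill the upper rows and the 23 that it lowered the lower rows, ending with *MYC*.

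**Figure D4:**
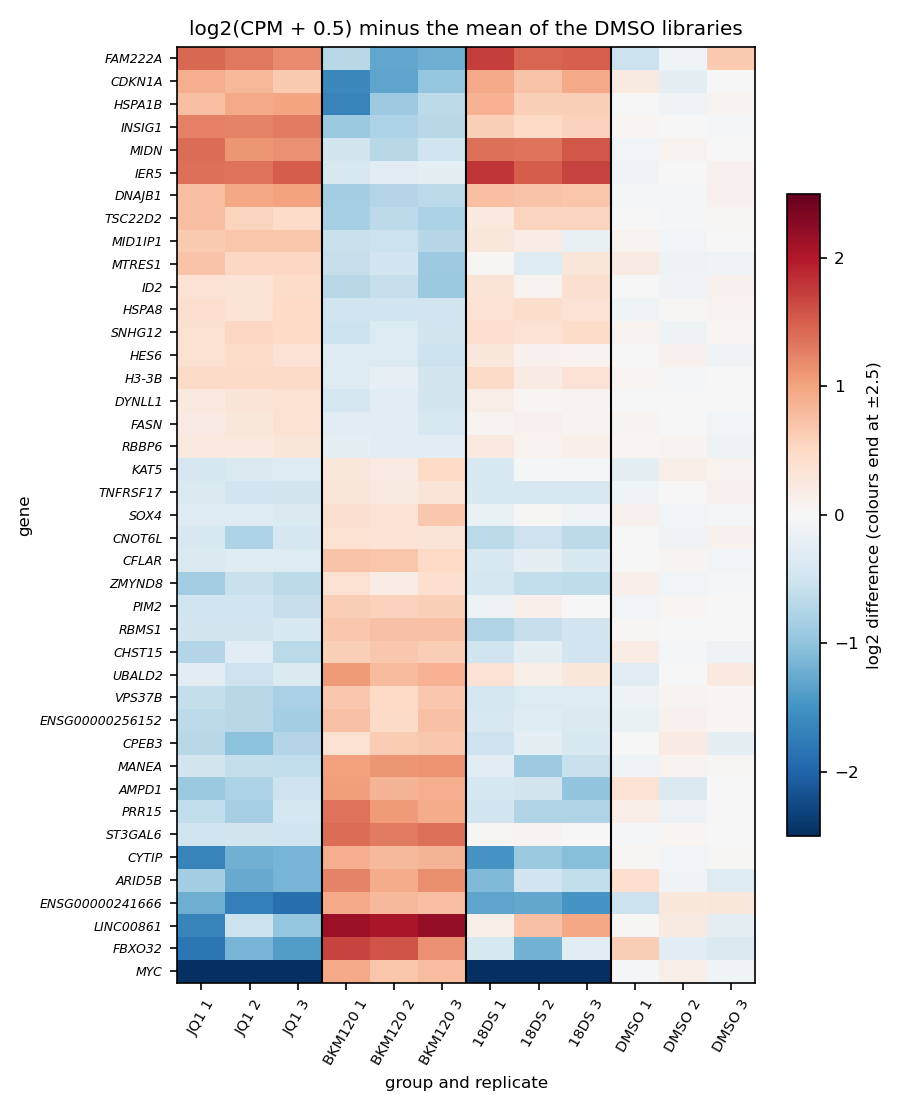
Level of the 41 genes in each of the 12 libraries as log2(CPM + 0.5) minus the mean of the DMSO libraries (colours end at ±2.5), with genes in rows and libraries in columns grouped as JQ1, BKM120, 18DS and DMSO. JQ1 and BKM120 columns have opposite colours, as the choice of genes requires, and the 18DS columns share the JQ1 colour in most rows.

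Promoter sequence was available from RefSeq (GRCh38.p14) for 32 of the 41 genes, 15 of the kind higher with JQ1 and 17 of the other, and for 8838 tested genes. The 250 bases before each start were searched on both strands for 6 motifs. The paired heat shock half-sites GAANNTTC occurred in 3 of the 15 promoters (20%), in 0 of the 17 and in 332 of the 8838 (3.76%). The 3 promoters with a match belong to the chaperone genes *HSPA1B* and *HSPA8* and to the immediate early gene *IER5*, an HSF1 partner. That of the chaperone gene *DNAJB1* was also searched and held no such match. The 3 with a match are shown with the matches in capitals and each sequence 5′ to 3′ on the strand of its gene.
HSPA1B: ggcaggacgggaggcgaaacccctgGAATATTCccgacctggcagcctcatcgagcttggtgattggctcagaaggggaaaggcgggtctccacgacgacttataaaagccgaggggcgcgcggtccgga
HSPA8: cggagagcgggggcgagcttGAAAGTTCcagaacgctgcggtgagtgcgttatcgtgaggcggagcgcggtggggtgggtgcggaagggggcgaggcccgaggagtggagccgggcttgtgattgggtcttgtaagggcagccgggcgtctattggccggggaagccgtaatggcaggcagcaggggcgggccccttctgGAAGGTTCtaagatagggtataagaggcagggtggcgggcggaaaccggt
IER5: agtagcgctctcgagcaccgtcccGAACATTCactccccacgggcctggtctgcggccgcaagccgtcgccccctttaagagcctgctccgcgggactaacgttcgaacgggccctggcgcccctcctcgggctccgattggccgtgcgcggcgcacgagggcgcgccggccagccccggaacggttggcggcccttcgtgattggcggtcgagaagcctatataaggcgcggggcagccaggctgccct
The windows end at the base before the start and are chr6:31827608-31827737 on the plus strand for *HSPA1B*, chr11:123062137-123062386 on the minus strand for *HSPA8* and chr1:181088450-181088699 on the plus strand for *IER5*. The CCAAT box CCAAT occurred in 10 of 15 (66.7%), 7 of 17 (41.2%) and 3215 of 8838 promoters (36.4%). The E-box CACGTG, bound by MYC with MAX, occurred in 2 of 15 (13.3%), 2 of 17 (11.8%) and 812 of 8838 (9.19%), among them *INSIG1* (chr7:155297778-155297877 on the plus strand), shown with the E-box in capitals.
INSIG1: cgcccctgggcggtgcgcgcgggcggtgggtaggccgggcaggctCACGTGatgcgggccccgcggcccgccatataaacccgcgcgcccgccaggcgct
The sterol response element TCACNCCAC occurred in 1 of 15 (6.67%), 1 of 17 (5.88%) and 79 of 8838 (0.894%). Among genes lower with JQ1 the match was in *CYTIP*, which is not a lipid synthesis gene. The window of *INSIG1* held no match, and no promoter sequence was available for *FASN*. The member with this element among genes higher with JQ1 was the lipid gene *MID1IP1* (chrX:38801359-38801458 on the plus strand), where the capitals mark the match on the opposite strand.
MID1IP1: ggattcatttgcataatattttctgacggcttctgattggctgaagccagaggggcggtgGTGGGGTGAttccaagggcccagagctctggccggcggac
The forkhead motif GTAAACA occurred in 0 of 15, 0 of 17 and 165 of 8838 (1.87%). No promoter sequence was available for the FOXO target *FBXO32* or for *MYC*. With so low a share over all tested genes, so few promoters cannot show a lack of the motif. The cyclic AMP element TGACGTCA occurred in 1 of 15 (6.67%), 1 of 17 (5.88%) and 286 of 8838 (3.24%). Such matches describe the letters of a window and do not show that a factor binds there.

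Lists of genes by role were read against the 14.6% of all tested genes that were called and a median difference of -0.00303 over all of them. The lists were written with earlier results of these data known, so a high share of called members is no independent evidence. The list of BET inhibitor response genes had 10 of 13 tested members higher with JQ1 and 0 lower (76.9% called, median 1.47), led by *SERTAD1*, *H2BC21*, *HEXIM1* and *DCUN1D3*. At an unadjusted p under 0.05 the edgeR count of lower members was also 0. Histone genes with polyadenylated transcripts had 10 of 19 higher and 0 lower (52.6%, median 0.58), with 1 lower at an unadjusted p under 0.05 in edgeR. They share 6 tested members with the list of BET inhibitor response genes. *H2BC12* averaged 138 ± 6.34 CPM with JQ1, 63.6 ± 5.23 CPM with BKM120 and 53.5 ± 6.83 CPM with DMSO. Among 27 genes of P-TEFb, its 7SK inhibitor complex and the BET family, 8 were higher and 2 lower with JQ1 (37%). The BET gene *BRD2* (0.81) and *POLR2A*, the large subunit of RNA polymerase II (0.70), were higher, and so was the P-TEFb cyclin *CCNT2* (0.71, but edgeR adjusted p = 0.0597 without JQ1 replicate 3). *BRD2* averaged 208 ± 6.81 CPM with JQ1, 119 ± 7.26 CPM with BKM120 and 111 ± 8.09 CPM with DMSO.

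Of 12 tested genes of the MYC and MAX network, 3 were lower and 0 higher with JQ1 (25% called; 1 higher at an unadjusted p under 0.05 in edgeR, and 1 called higher with library totals as the scale). Beside *MYC* these were the MYC antagonists *MXI1* (-0.92) and *MNT* (-0.83), and *MNT* lost its call without JQ1 replicate 3 or BKM120 replicate 1 or 3 (edgeR adjusted p = 0.0876, 0.0976 and 0.0513). Genes known to be activated by MYC had 5 higher and 11 lower of 59 (27.1% called, median -0.04), led by *TFAP4* (-1.28) and *WDR74* (-0.50) on the lower side, and by *TFRC* (0.57) and *ODC1* (0.46) on the higher side. Against DMSO, 0 of the 59 rose and 13 fell with JQ1, and 1 rose and 12 fell with BKM120, although BKM120 raised *MYC*. At an unadjusted p under 0.05 the edgeR counts were 2 and 21 with JQ1, and 4 and 22 with BKM120. Summed raw counts of *TFAP4* were 143 with JQ1, 343 with BKM120 and 462 with DMSO. Ribosome biogenesis factors had 3 higher and 5 lower of 81 (9.88%). Against DMSO, 0 of these 81 rose and 18 fell with JQ1, and 0 rose and 22 fell with BKM120. At an unadjusted p under 0.05 the edgeR counts were 0 and 33 with JQ1, and 1 and 39 with BKM120. *RRS1*, needed to build the large ribosomal subunit, had 37.4 ± 5.74 CPM with JQ1, 50.2 ± 2.61 CPM with BKM120 and 79 ± 6.73 CPM with DMSO, so that both compounds lowered it, and the compounds differed (log2 difference -0.42 with SE 0.11, edgeR adjusted p = 0.0111). *IMP3*, of the small subunit processome, had 254 ± 17.5 CPM with JQ1, 206 ± 27.7 CPM with BKM120 and 344 ± 11.4 CPM with DMSO, lower with both, and the compounds differed (log2 difference 0.30 with SE 0.08, edgeR adjusted p = 0.0112). These differences between the compounds lost their call without JQ1 replicate 2 (edgeR adjusted p = 0.116 for *RRS1* and 0.0799 for *IMP3*) or BKM120 replicate 3 (0.0551 and 0.0643), and that of *IMP3* also without BKM120 replicate 1 (0.127). Of 78 cytosolic ribosomal protein genes, 3 were higher and 11 lower with JQ1 than with BKM120 (17.9%), near the share over all genes. The fit with a replicate block gave 1 and 11. In these 78, 0 rose and 0 fell with JQ1 against DMSO, and 13 rose and 0 fell with BKM120. At an unadjusted p under 0.05 in edgeR, 3 rose and 0 fell with JQ1, and 23 rose and 6 fell with BKM120. Ribosomal protein genes have many processed pseudogenes with which reads may be shared, so these counts are uncertain.

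Many genes activated by FOXO factors were higher with BKM120. Of 44 tested, 21 were lower and 6 higher with JQ1 than with BKM120 (61.4% called, median -0.43). Against DMSO, JQ1 raised 9 and lowered 3 of them, and BKM120 raised 20 and lowered 1. *BTG1*, which restrains proliferation, averaged 166 ± 4.1 CPM with JQ1, 349 ± 18.2 CPM with BKM120 and 181 ± 6.91 CPM with DMSO (log2 difference -1.07 with SE 0.08, edgeR adjusted p = 2.48e-13). The list overlaps that of p53 targets in 8 tested genes. Among them *CDKN1A* and *SESN2* were higher with JQ1, and *TP53INP1* was lower. The stress sensor *SESN2*, which restrains mTORC1, averaged 38.1 ± 3.28 CPM with JQ1, 15.5 ± 1.6 CPM with BKM120 and 13.7 ± 0.983 CPM with DMSO. Of 34 components of the PI3K pathway, 6 were lower and 3 higher with JQ1 (26.5%). The insulin receptor adaptor *IRS2* had 9.46, 9.82 and 12.8 CPM with JQ1, 25.1, 19.5 and 29.8 CPM with BKM120 and 8.84, 9.83 and 6.83 CPM with DMSO, with every BKM120 library above the other groups. *RICTOR*, of mTORC2 (-0.90), and the mTORC1 inhibitor *AKT1S1* (-1.0) were lower with JQ1, and the 4E-BP gene *EIF4EBP2* was higher (0.39).

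Lipid synthesis genes that differed were all higher with JQ1. Of 34 sterol and fatty acid synthesis genes, 12 were higher and 0 lower with JQ1 (35.3%, median 0.32). Against DMSO, JQ1 raised 5 and lowered 0 of them, and BKM120 raised 1 and lowered 10. At an unadjusted p under 0.05 in edgeR, 1 was lower with JQ1 than with BKM120, and 2 were lower with JQ1 than with DMSO. *IDI1*, of the isoprenoid pathway, had 45.2, 45.1 and 54.1 CPM with JQ1, 26.9, 23 and 26.4 CPM with BKM120 and 29.5, 28.5 and 28.5 CPM with DMSO, so that the JQ1 libraries lay above both other groups and BKM120 did not pass the test against DMSO (edgeR adjusted p = 0.395). Of 26 heat shock chaperone genes, 8 were higher and 3 lower with JQ1 (42.3%, median 0.20), with *DNAJA1* (0.75) beside those already named. Genes of the unfolded protein response and ER folding had 5 higher and 3 lower of 28 (28.6%). Among them *HSPA5* (0.27) and *HERPUD1* (0.43) were higher and *DERL3* (-0.80) lower. Without JQ1 replicate 3, *HSPA5* and *DERL3* were not called (edgeR adjusted p = 0.0623 and 0.0682). ATF4 targets and tRNA synthetases had 5 higher and 3 lower of 32 (25%). *SESN2* (1.31) and the transcription factor *CEBPB* (0.39) were higher. The cystine transporter *SLC7A11* (-1.31) and the amino acid transporter *SLC38A2* (-0.87) were lower. Tubulin genes had 4 higher and 0 lower of 13 (30.8%), with *TUBB4B* (0.73) first, and 0 were lower at an unadjusted p under 0.05 in edgeR. Among the 4, *TUBB3* lost its call in 8 of 23 alternative settings. Of 41 autophagy and lysosome genes, 7 were higher and 5 lower (29.3%), among them the cargo receptor *SQSTM1* (0.64) and *GABARAPL1* (-0.73).

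**Figure D5:**
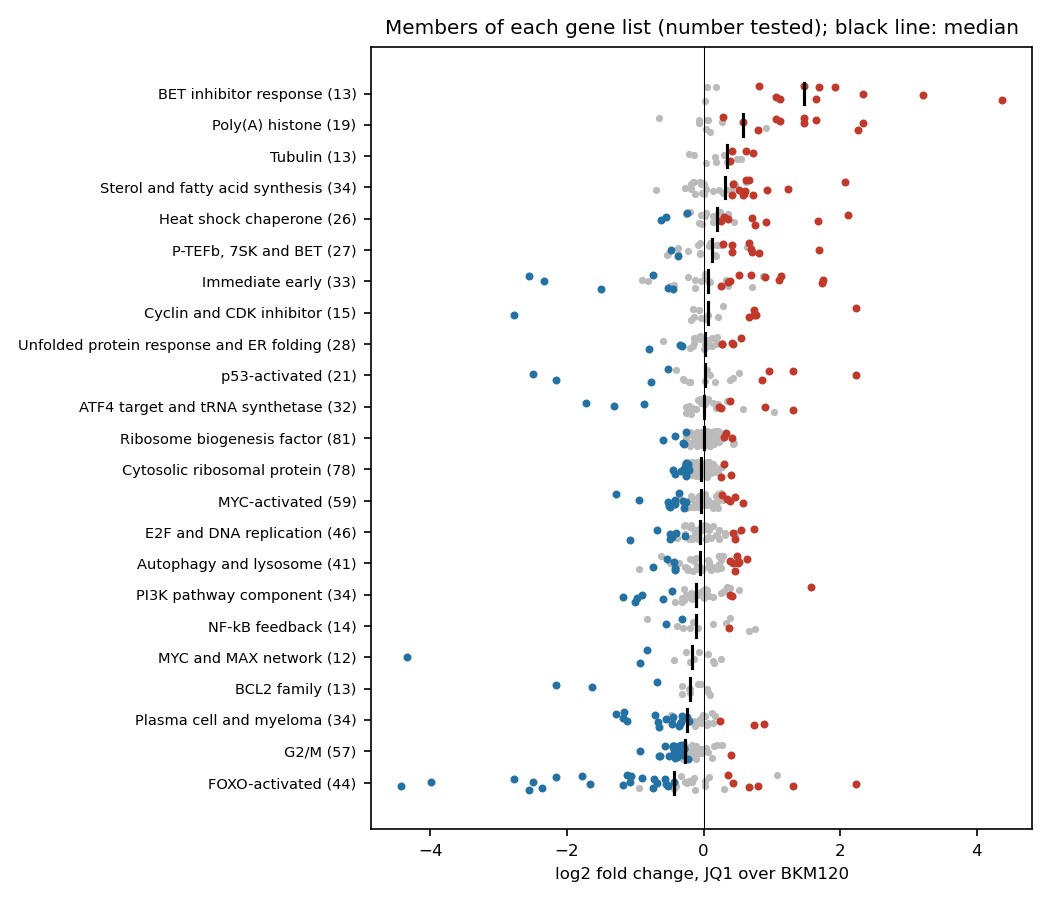
Log2 fold change of JQ1 over BKM120 (horizontal axis) for every tested member of each gene list, 1 point per gene, with called genes higher with JQ1 in red, called genes lower in blue, the others in grey, and the list median as a black line. Lists are ordered by median, from BET inhibitor response (1.47) to FOXO-activated (-0.43).

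Plasma cell genes that differed were mostly lower with JQ1. Of 34 plasma cell and myeloma genes, 16 were lower and 3 higher with JQ1 (55.9%, median -0.24). Against DMSO, JQ1 lowered 13 and raised 1, and BKM120 lowered 7 and raised 5. *CCR1*, a chemokine receptor, was lowered by both, at 16, 18 and 18.6 CPM with JQ1, 38.8, 46.4 and 43.3 CPM with BKM120 and 97.5, 85 and 91.1 CPM with DMSO (log2 difference -1.28 with SE 0.11, edgeR adjusted p = 1.68e-10). *IRF4*, the transcription factor on which myeloma cells depend, was likewise lowered by both, at 196 ± 2.99 CPM with JQ1, 234 ± 9.93 CPM with BKM120 and 303 ± 12.6 CPM with DMSO (log2 difference -0.25 with SE 0.07, edgeR adjusted p = 0.0163). The *IRF4* difference between the compounds lost its call without JQ1 replicate 1 or 2 or BKM120 replicate 1 (edgeR adjusted p = 0.06, 0.0625 and 0.0977). The IL-6 receptor subunit gene *IL6ST* differed by -1.18, with 0.97 for BKM120 and -0.21 for JQ1 against DMSO (edgeR adjusted p = 8.96e-08 and 0.365). Of 13 BCL2 family genes, 3 were lower and 0 higher with JQ1 (23.1%), and 0 were higher at an unadjusted p under 0.05 in edgeR. The 3 were all BH3-only death genes, namely *BBC3*, *BMF* (-1.64) and *BCL2L11* (-0.67). Against DMSO, *BMF* fell with JQ1 (-1.34, edgeR adjusted p = 3.90e-06) and did not pass with BKM120 (0.30, edgeR adjusted p = 0.267). By contrast, *BBC3* and *BCL2L11* rose with BKM120 (2.25 and 0.57) and did not pass with JQ1 (0.09 and -0.11). Of the 13 genes, JQ1 raised 3 and lowered 1 against DMSO, and BKM120 raised 5 and lowered 0. The survival genes *MCL1* and *BCL2* did not pass, with 95% intervals of -0.05 to 0.24 and -0.53 to 0.13 for the log2 difference (edgeR adjusted p = 0.438 and 0.456).

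Among 57 genes of the G2 and M phases, 23 were lower and 1 higher with JQ1 (42.1%, median -0.27). JQ1 lowered 6 and raised 0 of them against DMSO, and BKM120 raised 4 and lowered 0. At an unadjusted p under 0.05 in edgeR, 19 were lower and 1 higher with JQ1 than with DMSO, and 9 were higher and 4 lower with BKM120. The differences were small, such as -0.45 for the kinetochore gene *CENPF* and -0.43 for the mitotic kinase *AURKA*, with *CDC25C*, which activates CDK1, at -0.94. Of 46 E2F and DNA replication genes, 7 were lower and 4 higher (23.9%), with *E2F2* (-0.68) lower and *RRM2* (0.55) higher. Cyclins and CDK inhibitors had 5 higher and 1 lower of 15 (40%). *CCND2*, the D-type cyclin, had 262, 282 and 278 CPM with JQ1, 151, 189.7 and 152 CPM with BKM120 and 344, 279 and 256 CPM with DMSO (log2 difference 0.74 with SE 0.10, edgeR adjusted p = 6.85e-06), so that its BKM120 libraries lay below both other groups. Of 33 immediate early genes, 10 were higher and 6 lower with JQ1 (48.5%), with *IER5* (1.74) and *JUND* (1.10) higher and the phosphatase gene *DUSP4* (-0.74) lower. NF-kB feedback genes had 1 higher and 2 lower of 14 (21.4%), and p53-activated genes 4 higher and 4 lower of 21 (38.1%). The NF-kB calls were *RELA*, *BIRC2* and *TNIP1*, which were lost in 3, 4 and 9 of 23 alternative settings.

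The mean level with 18DS, the chimeric compound, was set beside both. Its mean level was nearer to the JQ1 mean than to the BKM120 mean in 39 of the 41 opposite genes (95.1%), in 1236 of the 1925 called genes (64.2%) and in 7030 of all tested genes (53.3%). It lay between the JQ1 and BKM120 means in 33 of the 41 (80.5%), in 67% of the called genes and in 37.4% of all tested genes, and the 41 were chosen for values on either side of DMSO. *MYC* had 3.66, 2.46 and 1.42 CPM in the 18DS libraries, which fell on both sides of the JQ1 values and below every BKM120 value (log2 difference of 18DS minus JQ1 0.02, 95% interval -0.59 to 0.63). *INSIG1* had 211, 198 and 208 CPM with 18DS, below every JQ1 library and above every BKM120 library (-0.72 against JQ1, edgeR adjusted p = 3.37e-07). The FOXO target *KLF2* had 132, 102 and 157 CPM with 18DS, above every JQ1 library and below every BKM120 library (1.39 against JQ1, edgeR adjusted p = 7.31e-04). *DCUN1D3* had 80.2, 70.6 and 89.5 CPM with 18DS, above every JQ1 library (1.06, edgeR adjusted p = 6.34e-05). By the edgeR test 18DS was higher than JQ1 in 6 of the 41 genes and lower in 3, namely *INSIG1*, *MID1IP1* and *MTRES1*, against 313 higher and 235 lower of all 13180 tested genes. It was higher than BKM120 in 18 of the 41 and lower in 23, against 612 and 879 of all tested genes. The 41 were chosen from the same JQ1 and BKM120 libraries, so their counts set beside those of all tested genes are no independent evidence. The dose of 18DS equals that of JQ1 (250 nM) but not that of BKM120 (1 µM).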

How the data were processed

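OPM2 libraries were made by 3' mRNA sequencing with single-end reads. The authors deposited raw counts per Ensembl gene as whole numbers, with a column for each library. The submitters' processing notes name HISAT2 2.1.0 and featureCounts (Subread), with cutadapt 1.7 and SAMtools 1.9, and the build hg19. Their annotation, strandedness and rule for multiply mapped reads were not given in the sources used here, and antisense and overlapping genes cannot be told apart from their partners. Gene symbols were matched by identifier (39560 of 63152 identifiers, 23592 without one holding 9.12% of counts), and no coordinates of the counted genes are given because the available sequences are of another build.

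The count model was edgeR 4.0.16 in R 4.3.3 (filterByExpr by group, minimum count 10 and total 15; TMM; 1 robust quasi-likelihood fit over 12 libraries without a replicate block; common biological coefficient of variation 0.0862). Called means a Benjamini-Hochberg adjusted p under 0.05 over all tested genes of a contrast. The median standard error of a log2 difference was 0.17. Alternatives used DESeq2 1.42.0 and limma 3.58.1. Tables were read with data.table (version 1.17.8), and figures were drawn in Python 3.11.15, matplotlib 3.10.9, numpy 2.4.6 and pandas 2.3.3. Between replicates of a group, counts differed by 1.92 to 8.88 times sampling noise (chi-square per degree of freedom), so no library was a copy of another.

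Named genes were the 12 largest called differences in each direction with a symbol, 5 CPM or more on average and no overlap, 13 genes of interest, the 10 leading opposite genes of each kind, and up to 4 called members with the smallest adjusted p per list. Other opposite genes are named as members of that set, and *REST*, *SLC12A2*, *CFLAR* and *TERF2IP* for their place at a threshold. A few genes that the rule names are not reported here. The members, lists and rules were chosen with earlier results of these data known. Lists are described by counts and medians. Promoters are from RefSeq (GRCh38.p14). Alternatives were other scalings, filters and tests, thinning, leaving out in turn each JQ1, BKM120 and DMSO library and 18DS replicate 2, and a block on replicate number.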

Additional observations from a re-analysis of the deposited data

How the results depend on the processing

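At an adjusted p under 0.01 edgeR called 960 genes, 469 higher and 491 lower with JQ1, and 24 opposite genes, 12 of them lower with JQ1. DESeq2's Wald test gave 15 opposite genes lower with JQ1. Leaving out in turn each JQ1, BKM120 and DMSO library and 18DS replicate 2 gave 1156 to 2316 called genes, 548 to 1149 higher and 579 to 1167 lower with JQ1, 27 to 55 opposite genes, 12 to 24 of them higher and 14 to 31 lower with JQ1. The highest of these came without 18DS replicate 2, and 18DS replicates 1 and 3 were not left out. Other scalings, filters and tests gave 1568 (DESeq2's Wald test) to 2314 (the 6 libraries alone) called genes, and no named gene changed direction. The near-even split of 947 higher and 978 lower became 979 and 948 with library totals and 805 and 763 with DESeq2, and the median of all genes went to 0.00296 with library totals, against -0.00303. Without both 18DS replicate 2 and BKM120 replicate 3, a setting chosen after seeing the data, 1628 genes were called. Correlations of deviations between groups were -0.249 to 0.188 (median 0.0134) for same-numbered libraries. For differently numbered libraries they were -0.229 to 0.249 (median -0.0144). No pairing by number was seen, but the labels do not say whether such libraries share a culture, and these values cannot exclude it. With a replicate block 1827 genes were called, 1775 of them shared with the fit without it, and 34 genes were opposite (15 higher and 19 lower with JQ1). Of 108 named genes, 95 kept their side of the threshold in every setting that tested them (23, or 22 for *CCNG2*, *FBXO32* and *PIK3IP1*, which a mean of at least 5 CPM left out). The rest lost it at least once, among them *BIRC2*, *CCNT2*, *DERL3*, *HSPA5*, *IMP3*, *IRF4*, *MNT*, *RELA*, *RRP1B*, *RRS1*, *TNIP1* and *TUBB3*. The cause was not tested. Depth limits genes with few counts, such as *PIK3IP1* and *FBXO32*.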
